A study of Mus musculus with 6 samples.

Results

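The genes of the epithelial sodium channel and of its aldosterone and vasopressin control were examined in a pooled map of accessible chromatin from mouse kidney cortex. The set held 9 genes, Scnn1a, Scnn1b, Scnn1g, Nr3c2, Nr3c1, Hsd11b2, Sgk1, Nedd4l and Avpr2, of 21757 protein-coding genes. Its members were the distinct intervals of the peak list that overlapped a gene from 3 kb upstream of its start to its end in the GENCODE M39 annotation of GRCm39, which gave 348 of 279569 intervals. The members were chosen by gene name and position and not by any measured value, but with earlier results of these data known.

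The assay for transposase-accessible chromatin (ATAC-seq) uses the Tn5 transposase to insert adapters into open DNA. The libraries mapped here came from 3 WT mice and 3 mice with tubule-specific Acly knockout (Acly cKO), all with the treatment labelled Control. By the methods, Acly fl/fl mice were crossed with Ksp-Cre (Cdh16-Cre) mice, whose Cre acts across tubular epithelia from the proximal tubule to the collecting duct, and littermates with Acly fl/fl and no Cre served as controls. The labels give the tissue as kidney and state no age, and 2 further WT libraries of the study are not among the 6 mapped here. The authors deposited a single pooled peak list, with no column for any library, and whether the 2 further WT libraries entered it is not stated in the sources used here, so the values may include them. WT and Acly cKO kidneys were therefore not compared, no value below carries a replicate error, and the depth of each library is unknown. The WT libraries were of batches 1 and 2 and the Acly cKO libraries of batches 4 and 5, so a difference of batch and one of genotype cannot be told apart. In bulk tissue, fewer cells of a type and less accessibility per cell cannot be told apart either, and Cre-negative cells of the cortex, such as endothelium and immune cells, contribute to the same list.

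In the distal nephron and collecting duct, the epithelial sodium channel (ENaC) takes up sodium from the tubular fluid through a pore made of alpha, beta and gamma subunits. Aldosterone binds the mineralocorticoid receptor, which raises channel abundance, in part through the kinase SGK1, and SGK1 restrains the ubiquitin ligase NEDD4L, which removes the channel from the cell surface. The enzyme HSD11B2 inactivates glucocorticoids in these cells and so keeps the mineralocorticoid receptor open to aldosterone, while vasopressin acts through its V2 receptor on the same cells.

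Chromatin was accessible at the start of all 9 genes. An interval lay within 1 kb of the canonical transcript start at 9 of 9, while the background over 21757 protein-coding genes was 75.8%, and it reached a fold enrichment of at least 5 at 9 of 9, where the background was 66.2%. Fold enrichment is the signal at an interval's highest summit divided by the background that the peak caller estimated, and q is its false discovery rate. The highest summit can lie away from the start. Within 250 bp of the canonical start the highest summit had 3.27 at Avpr2, and Scnn1b had none. The values at the starts ran from 6.87 at Avpr2 to 89.7 at Nr3c2, a wide range beside the median of 30.1 over the 16499 accessible starts of protein-coding genes. All deposited fold values were whole multiples of 0.0655 within 0.05 of a step. They thus share a common divisor, with no sign of a background that varied by locus. Each step was taken as 1 read of the pool, which gave each value an exact Poisson 95% interval that covers counting error only. The -log10 q had 1 value for each fold value, so it adds no separate ranking.

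By these counting intervals the 9 starts fell into levels. Nr3c2 stood highest at 89.7 (85.0 to 94.6), above 98.2% of accessible starts. Sgk1 at 57.7 (54.0 to 61.7) and Nr3c1 at 57.1 (53.4 to 61.0) overlapped each other, above 84.2% and 83.4% of accessible starts. Nedd4l followed at 49.6 (46.2 to 53.3), just below both. Scnn1g at 28.4 (25.8 to 31.2) and Hsd11b2 at 23.0 (20.7 to 25.6) did not overlap, but Scnn1a, at 24.7 (22.3 to 27.4), overlapped each of them. Scnn1g stood above 47.4% of accessible starts, Scnn1a above 42.0% and Hsd11b2 above 39.5%, all somewhat below the middle. Scnn1b at 10.5 (8.98 to 12.3) and Avpr2 at 6.87 (5.62 to 8.32) were lowest, above 22.4% and 16.6%. By the highest summit, the receptors, the kinase and the ligase stood above the channel subunits, the enzyme and the vasopressin receptor. By the summit nearest to the start, Nr3c1 had 19.8 and lay below Scnn1g and Scnn1a, whose values did not change.

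**Figure D1:**
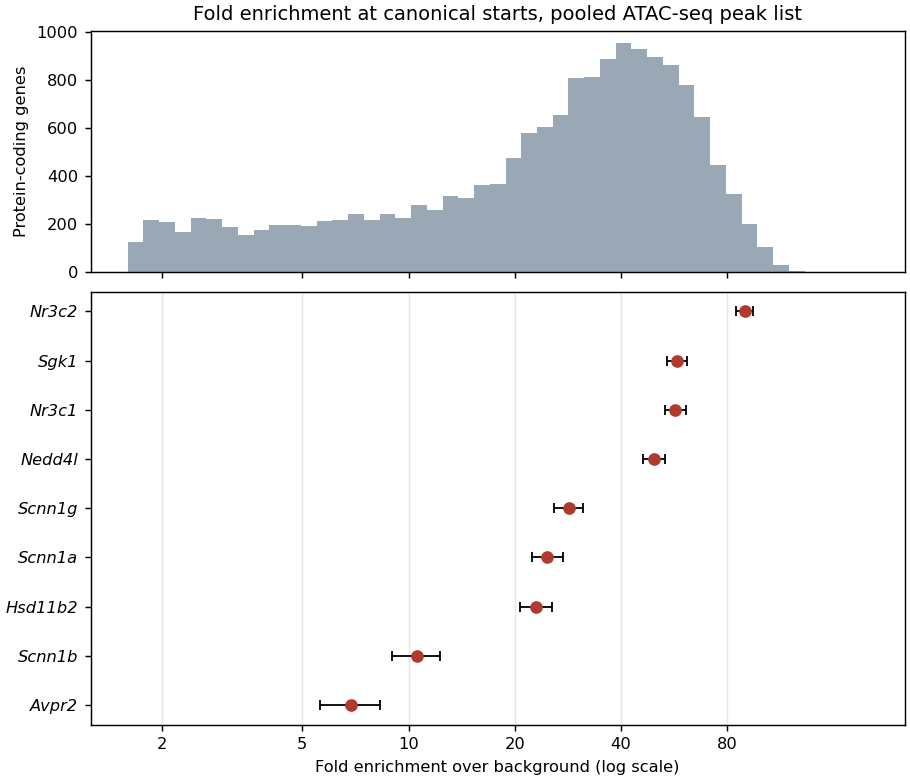
Fold enrichment at the canonical starts on a log scale. The histogram counts the 16499 protein-coding genes with an interval within 1 kb of the start. The points below are the 9 genes, with bars for the exact Poisson 95% interval, which covers counting error only. Nr3c2 lies at the right end of the histogram at 89.7, and Avpr2 and Scnn1b lie in its left shoulder at 6.87 and 10.5.

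Most of the 348 intervals were weak. Over all of them the median fold enrichment was 2.49, beside 2.55 over the whole list, and 78 (22.4%) reached 5, beside 24.5% of the whole list. A q under 1e-05 was reached by 191 (54.9%), the same share as in the list. The highest summit lay in an intron of the canonical transcript in 307 intervals (88.2%). This share was not computed for the whole list, and the set admits only intervals that overlap a gene or the 3 kb before it. Nedd4l and Nr3c2, the longest of the 9 genes, held 263 of the intervals (75.6%), and Avpr2 held 2. Of the 348 intervals, 35 lay within 1 kb of an annotated start of the gene itself, with a median fold of 5.56, and 313 lay farther, with a median of 2.42, of which 59 (18.8%) reached 5. Of the 302 over 1 kb from every annotated start of any gene, 17.5% reached 5, beside 19.3% of 220047 such intervals in the list. The nearest intervals beyond either end of the 9 regions, which were not members, had folds from 1.83 to 13.6, the highest 6636 bp upstream of the Avpr2 region.

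**Figure D2:**
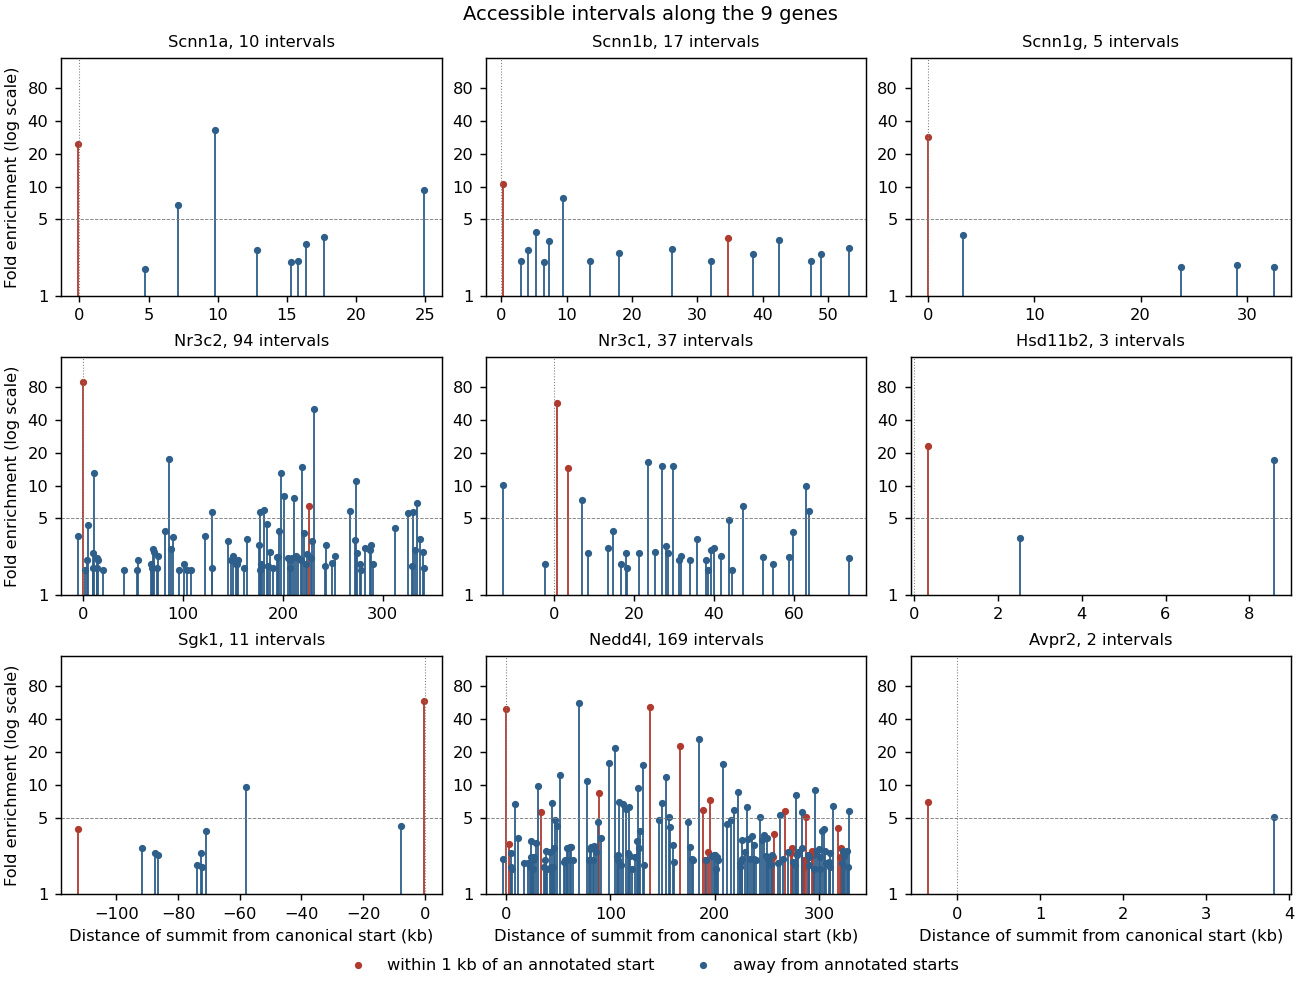
Each accessible interval of the 9 genes, placed by the distance of its highest summit from the canonical start in kb, with fold enrichment on a log scale. Red marks intervals within 1 kb of an annotated start of the gene, blue the others, the dotted line the canonical start and the dashed line a fold of 5. In Nedd4l and Scnn1a an interval away from any start is the highest (55.5 and 33.0), and in Nr3c2 an intronic interval reaches 50.0.

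Sequence is given below for stretches that carry these values, read from the plus strand of GRCm39 in lower case, with coordinates counted from 1. Capitals mark matches, on either strand, to 8 short motifs. They are the element shared by the glucocorticoid and mineralocorticoid receptors (GNACA, then TGTNC after a gap of 3), HNF1 (TTAAT, then ATTAA after a gap of 1), CTCF (CCANNAG, then GGC after a gap of 2), AP-1 (TGANTCA), CREB (TGACGTCA), grainyhead (AACNNGTT), TFCP2L1 (CCNG, then CCNG after a gap of 6) and SP and KLF factors (GGGCGG). Matches to different motifs may share letters. A match shows that the letters are present and does not show binding.

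Scnn1a, which encodes the alpha subunit (ENSMUSG00000030340.17, plus strand of chromosome 6, 125297622 to 125321906), had 10 intervals, of which 4 reached a fold of 5. Its start lay in an interval of 8566 bp with 21 summits, the highest 70 bp upstream of the canonical start at a fold of 24.7 and a -log10 q of 379. This interval held all 6 annotated starts of the gene, with summits of 14.0 to 24.7 within 250 bp of them. A start of the long noncoding RNA Gm66744 lay in the interval or within 1 kb of it. The start was not the most accessible site of the gene. That was an interval of 4059 bp from 125306694 to 125310752, whose highest summit lay in coding exon 2, 9.82 kb downstream of the start, at 33.0 (30.2 to 36.0). The counting intervals of the start and of the exon 2 summit did not overlap. The exon 2 summit stood above 99.7% of the 220047 intervals of the list that were over 1 kb from every annotated start. The 200 bases around it had a GC content of 66.0% and 3 SP and KLF matches, a motif found in 8.15% of such windows over the whole list. They are shown as the most accessible site of the gene, chr6:125308021-125308220.
Scnn1a exon 2: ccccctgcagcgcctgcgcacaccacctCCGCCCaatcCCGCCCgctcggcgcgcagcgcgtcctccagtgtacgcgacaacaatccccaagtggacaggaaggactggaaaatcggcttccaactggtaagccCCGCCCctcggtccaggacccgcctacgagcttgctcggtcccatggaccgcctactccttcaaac

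In intron 1 of Scnn1a an interval at 7.12 kb reached 6.81, and its window held 1 CTCF and 1 AP-1 match. An interval that began inside the gene ran past its end, with its highest summit downstream at 24.9 kb, a fold of 9.23, and a start of the long noncoding RNA Gm68180 within 1 kb of the interval. The remaining 6 intervals stayed between 1.77 and 3.47. Together the 10 intervals covered 82.5% of the region, a higher share than in 92.5% of protein-coding genes, so accessible sequence ran almost end to end over this short gene.

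Scnn1g and Scnn1b, which encode the gamma and beta subunits, are neighbours on the plus strand of chromosome 7, with starts 130.4 kb apart. Scnn1g (ENSMUSG00000000216.10, 121333545 to 121367755) had 5 intervals, and the start interval of 1546 bp was the only one with a fold of at least 5, at 28.4 with its highest summit 23 bp upstream. The next, in intron 1 at 3.26 kb, had 3.60, and the other 3, in introns 6, 10 and 12, had 1.83 to 1.90. The intervals covered 9.03% of the region. Scnn1b (ENSMUSG00000030873.11, 121463946 to 121517737) had 17 intervals, of which 2 reached 5. Its start interval, 881 bp with 1 summit 290 bp downstream in the 5′ UTR, had 10.5. The other was in intron 1 at 9.52 kb, 2878 bp wide with 10 summits, at 7.79 (6.45 to 9.32), which overlapped the start in its counting interval. The start of Scnn1g was thus 2.70 times as enriched as that of Scnn1b, while Scnn1b had the more intervals away from its start. The 93.2 kb between both regions held 8 intervals, 1 of which reached 5, at 5.50.

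The 150 bases before each canonical start are shown because these 2 stretches differ in composition and the 2 start intervals in signal. At Scnn1b the summit lay outside the stretch, 64 bp from another coding start 354 bp downstream of the canonical one. Over 250 bases before to 50 after the start, Scnn1g had a GC content of 60.7% and 14 CpG dinucleotides, and Scnn1b 47.0% and 0. Neither stretch of 150 bases held a match to the 8 motifs. The Scnn1g stretch is chr7:121333395-121333544 and the Scnn1b stretch chr7:121463796-121463945. The last sequence, chr7:121473361-121473560, is the window at the intron 1 summit of Scnn1b, with its AP-1 match.
Scnn1g promoter: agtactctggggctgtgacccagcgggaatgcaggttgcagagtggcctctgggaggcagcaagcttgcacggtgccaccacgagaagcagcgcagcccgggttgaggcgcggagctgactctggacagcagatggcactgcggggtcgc
Scnn1b promoter: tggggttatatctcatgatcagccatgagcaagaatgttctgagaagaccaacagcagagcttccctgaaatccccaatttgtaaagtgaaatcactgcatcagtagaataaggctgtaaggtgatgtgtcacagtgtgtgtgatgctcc
Scnn1b intron 1: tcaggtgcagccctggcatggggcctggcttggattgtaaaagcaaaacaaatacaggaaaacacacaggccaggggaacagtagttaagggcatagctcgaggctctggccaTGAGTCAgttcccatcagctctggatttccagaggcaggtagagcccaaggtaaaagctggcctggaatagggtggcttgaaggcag

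A full element for the glucocorticoid and mineralocorticoid receptors was found in the summit windows of 2 of the 348 intervals (0.575%), beside 0.577% of the list. The stronger lay in intron 4 of Scnn1b, 42.4 kb from the start, in an interval with a fold of 3.27, and the element itself runs from 121506335 to 121506347. It is shown with its flanks, chr7:121506315-121506367, as the element at a channel subunit. That interval, like 9 of the 17 of Scnn1b, has its summit in sequence that the annotation also gives to Cog7, on the opposite strand.
Scnn1b intron 4 element: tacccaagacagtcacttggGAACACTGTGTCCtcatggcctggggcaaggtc

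Nr3c2, which encodes the mineralocorticoid receptor (ENSMUSG00000031618.15, plus strand of chromosome 8, 77625576 to 77971863), had the most accessible start of the 9 genes and 94 intervals, of which 17 reached a fold of 5. The start interval of 5456 bp held starts of 2 groups of transcripts. The summit 11 bp downstream of the canonical start had 89.7 and a -log10 q of 2124, above 99.9% of all intervals in the list. The group of starts 2.71 to 2.91 kb farther upstream had a summit of 38.8 in the same interval. Starts of the noncoding genes Gm10649 and Gm64659 lay in this interval or within 1 kb of it. The list cannot assign the signal to a strand. The coding start 6.12 kb downstream had no interval within 250 bp.

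The strongest interval away from the Nr3c2 starts lay in intron 3, 231 kb into the gene, from 77858139 to 77861873. Its fold of 50.0 (46.5 to 53.6) stood above 99.96% of the intervals over 1 kb from every annotated start. Further intervals reached 17.6 in intron 2 at 85.9 kb and 14.7 in intron 3 at 219 kb. Intron 3, with 69.5 kb, held 29 intervals or 4.17 for every 10 kb, and intron 2, with 175 kb, held 41 or 2.34. The sequence at the intron 3 summit, chr8:77859560-77859759, held 1 grainyhead and 1 TFCP2L1 match, both shown in capitals. The promoter, chr8:77628631-77628780, is the most enriched of the set and held no match in these 150 bases. The last sequence, chr8:77736309-77736361, shows the other receptor element, in intron 2 at 107 kb, whose interval had a fold of 1.70 and a -log10 q of 1.37.
Nr3c2 intron 3: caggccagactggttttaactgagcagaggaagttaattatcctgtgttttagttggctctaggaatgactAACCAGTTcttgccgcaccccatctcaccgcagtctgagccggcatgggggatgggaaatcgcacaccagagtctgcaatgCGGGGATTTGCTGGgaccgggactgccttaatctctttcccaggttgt
Nr3c2 promoter: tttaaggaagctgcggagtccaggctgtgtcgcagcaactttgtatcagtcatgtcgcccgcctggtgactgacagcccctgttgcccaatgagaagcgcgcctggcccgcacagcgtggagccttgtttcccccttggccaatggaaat
Nr3c2 intron 2 element: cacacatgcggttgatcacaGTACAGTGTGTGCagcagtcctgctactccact

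Hsd11b2 (ENSMUSG00000031891.8, plus strand of chromosome 8, 106245369 to 106250620) had 3 intervals that covered 95.0% of its region, more than in 97.4% of genes. The start interval of 5702 bp had its highest summit in coding exon 1, 333 bp downstream, at 23.0, and the summit nearest to the start had 14.7. Intron 1 held an interval of 3.34. The remaining interval began in the gene and ran for 10804 bp with 36 summits, the highest 8.58 kb from the start at 17.2 (15.2 to 19.4). That summit lies beyond the end of Hsd11b2, in Atp6v0d1, which encodes a subunit of the vacuolar proton pump, so the value cannot be given to Hsd11b2 alone. The promoter, chr8:106245219-106245368, is shown for its 3 SP and KLF matches, a motif that 32.6% of all protein-coding promoters of this length held, and the site in Atp6v0d1, chr8:106253852-106254051, for its 2 TFCP2L1 matches, which share letters.
Hsd11b2 promoter: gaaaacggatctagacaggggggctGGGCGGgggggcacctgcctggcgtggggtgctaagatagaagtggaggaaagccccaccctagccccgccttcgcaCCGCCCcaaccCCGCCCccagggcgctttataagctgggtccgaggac
Atp6v0d1 site: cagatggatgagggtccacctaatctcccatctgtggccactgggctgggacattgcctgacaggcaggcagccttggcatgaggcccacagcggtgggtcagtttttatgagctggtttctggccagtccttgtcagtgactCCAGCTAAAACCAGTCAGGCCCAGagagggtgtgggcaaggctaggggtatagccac

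Sgk1, the aldosterone-induced kinase (ENSMUSG00000019970.17, plus strand of chromosome 10, 21758083 to 21875802), had 11 intervals, of which that at the start was far the strongest. An interval of 8696 bp with 20 summits covered nearly all of the canonical transcript of 5.24 kb, with its highest summit 118 bp upstream at 57.7. Annotated transcripts also start far upstream. The starts at 112 kb upstream had an interval of 3.93, and the starts at 66.2 and 16.0 kb upstream had none within 250 bp. Of the other intervals, only that 58.0 kb upstream reached 5, at 9.49 (8.01 to 11.2), and the next had 4.19 at 7.79 kb and 3.80 at 70.9 kb upstream. Just 25 bp past the end of the gene, and so outside the set, lay an interval of 7.86.

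Nr3c1, which encodes the glucocorticoid receptor (ENSMUSG00000024431.17, on the minus strand of chromosome 18 from 39543598 to 39652474), had 37 intervals, of which 10 reached 5. The start interval of 4500 bp held 9 summits and 9 of the 12 annotated starts, the alternative first exons of the gene. Its highest summit, at 57.1, lay 766 bp downstream of the canonical start, next to a group of 3 coding starts 822 to 871 bp downstream. Within 250 bp of the canonical start the highest summit had 34.0, and the nearest single summit had 19.8. The pair of starts near 3.47 kb downstream had an interval of their own at 14.5, and the start 28.7 kb upstream had none. Intron 2, of 57.2 kb, held 30 intervals, and its 3 strongest, at 16.3, 15.3 and 15.1, lay 23.6, 27.0 and 29.7 kb from the start. Their counting intervals overlapped.

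Nedd4l, the ubiquitin ligase that removes ENaC from the surface (ENSMUSG00000024589.20, plus strand of chromosome 18, 65020724 to 65350899), had 169 intervals with 650 summits, and 38 of them reached 5. They covered 62.1% of its 333 kb region, a higher share than in 97.4% of the 2654 protein-coding genes of at least 100 kb, whose median was 8.09%. At 5.07 for every 10 kb it had more intervals than 99.1% of these genes. The canonical start, shared by 12 of 47 transcripts, had 49.6. The strongest interval was in intron 1, 69.7 kb into the gene and 19476 bp from the nearest annotated start. It was 11380 bp wide with 33 summits and had 55.5 (51.8 to 59.4), above 99.97% of the intervals over 1 kb from every annotated start, and its counting interval overlapped that of the start. Another site of 51.1 (47.5 to 54.8), in intron 2, lay 130 bp from the start of a shorter coding transcript 138 kb into the gene. Further intervals reached 26.0 in intron 2 at 185 kb and 21.5 in intron 1 at 104 kb. From intron 6 on no interval exceeded 8.84.

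Avpr2, which encodes the V2 vasopressin receptor (ENSMUSG00000031390.9, plus strand of chromosome X, 72935708 to 72939108), had 2 intervals. That at the start had its highest summit 348 bp upstream at 6.87, and the summit nearest to the start had 3.27. The other, past the end of the gene at 3.81 kb, had 5.11 (4.04 to 6.37) and overlapped the first in its counting interval. Both summits lie in sequence that is also annotated to Arhgap4 and L1cam on the opposite strand, and an annotated L1cam start lies within 1 kb of the downstream interval. On X, 53.8% of 982 protein-coding starts were accessible with a median fold of 22.5, beside 77.4% and 30.4 on the autosomes. Among the 528 accessible starts on X, Avpr2 stood above 21.2%.

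The share of a gene region covered by intervals differed widely across the set. It was 95.0% at Hsd11b2, 82.5% at Scnn1a, 62.1% at Nedd4l, 42.8% at Avpr2, 26.8% at Scnn1b, 24.4% at Nr3c1, 18.3% at Nr3c2, 11.4% at Sgk1 and 9.03% at Scnn1g, while the median over protein-coding genes was 16.7%. Nr3c2 and Nedd4l are of like length, 349 and 333 kb with the upstream 3 kb, and the share of Nedd4l was 3.40 times that of Nr3c2. Nr3c2 had the higher start. Intervals that pass the threshold by a small margin add to coverage as much as strong ones of the same width.

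**Figure D3:**
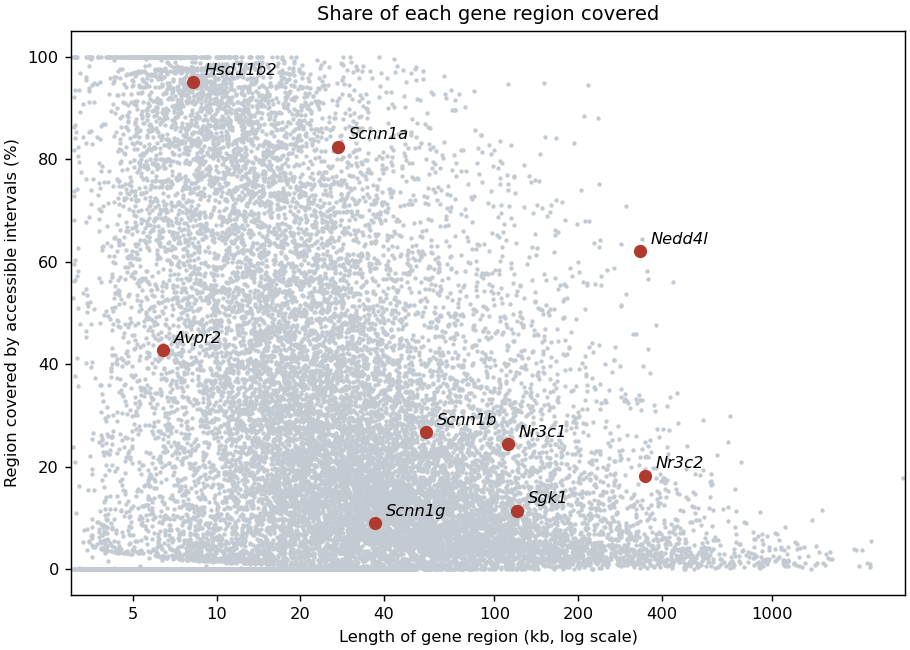
Share of each gene region covered by accessible intervals against the length of the region in kb (log scale). Each grey point is 1 protein-coding gene and the red points are the 9 genes. Nedd4l, at 333 kb and 62.1%, lies near the upper edge for its length, and Nr3c2, at 349 kb and 18.3%, lies far below it.

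The starts also differed in base composition. A promoter was called CpG-rich here if the 250 bases before to 50 after the start had a GC content of at least 50% and an observed to expected CpG ratio of at least 0.6. Nr3c2, Nr3c1, Hsd11b2, Sgk1 and Nedd4l were CpG-rich, with 19 to 28 CpG each, and Scnn1a, Scnn1b, Scnn1g and Avpr2 were not, with 0 to 14. Over all protein-coding genes 98.5% of CpG-rich starts were accessible with a median fold of 39.7, and 61.0% of the others with a median of 17.9. Set against accessible starts of its own class, Nr3c2 stood above 97.0%, Sgk1 above 76.5%, Nr3c1 above 75.4%, Nedd4l above 65.8% and Hsd11b2 above 21.9%. In the other class Scnn1g stood above 65.6%, Scnn1a above 60.5%, Scnn1b above 37.4% and Avpr2 above 28.6%. Within its class Hsd11b2 was the lowest placed of the 9 starts, but its CpG ratio of 0.606 lay close to the limit, and it stood above 58.0% of the other class. Scnn1a and Scnn1g stood in the upper part of theirs. The folds ranked here are of the highest summit, which at Hsd11b2, Scnn1b, Avpr2 and Nr3c1 lay outside the stretch used for the class. The part of base composition in these levels was not tested.

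The 200 bases around the highest summit held a TFCP2L1 match in 55 of the 348 intervals (15.8%, beside 15.7% of the list), an AP-1 match in 40 (11.5%, beside 12.4%), an SP and KLF match in 25 (7.18%, beside 8.15%) and a grainyhead match in 10 (2.87%, beside 2.98%). CTCF was found in 5 (1.44%, beside 4.23%) and HNF1 and CREB in 1 each (0.287%, beside 0.207% and 0.405%). Apart from CTCF these shares lay near those of the list. The start intervals, looked at separately after these values were seen, gave other shares. An SP and KLF match lay in the summit windows of 9 of 9 starts, beside 57.5% of the 16499 accessible starts, and a TFCP2L1 match in 8 of 9, all but Nr3c2, beside 37.2%. In windows of 100 bases the counts were 7 of 9 for each, beside 42.2% and 21.1%. In the 150 bases before the start they were 4 of 9 for each, beside 32.6% and 18.5% of all protein-coding promoters, so the contrast was smaller there. TFCP2L1 is a transcription factor of collecting duct and other distal tubule cells. The fixed letters of its motif, and of the SP and KLF motif, are all C or G. The part of base composition in these counts was not tested. AP-1 matches lay at 0 of 9 starts, beside 4.43%, and the receptor element at 0 of 9, beside 0.182%.

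Other genes of the pathway were accessible at their starts with few exceptions. Of 31 genes, 30 had a start interval (96.8%, beside 75.8% of all protein-coding genes). A fold of 5 was reached by 28 (90.3%, beside 66.2%). Their median over accessible starts was 30.2, near the 30.1 over all accessible protein-coding starts. The highest were Prkaca, the catalytic subunit of protein kinase A, at 94.5, Atp1b1, a subunit of the sodium pump, at 71.4, and Pdpk1, a kinase that activates SGK1, at 63.9. The lowest were Slc12a3, the thiazide-sensitive sodium chloride cotransporter, at 8.38, Hsd11b1, which regenerates active glucocorticoid, at 4.26, and Aqp2, the vasopressin-regulated water channel, at 4.19. The adrenal aldosterone synthase gene Cyp11b2 had no start interval. The start of Avpr2 lay between those of Slc12a3 and Aqp2.

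Of 18 paralogs, 17 had a start interval (94.4%, beside 75.8% of all protein-coding genes) and 14 reached 5 (77.8%, beside 66.2%). Their median over accessible starts was 20.2, below the 30.1 over all accessible protein-coding starts. Among the ENaC relatives of the acid-sensing channels, Asic1 had 8.71, Asic5 6.55, Asic3 5.76 and Asic4 2.75, and Asic2 had none, so each value lay below those of the 3 ENaC genes. Their counting intervals were not compared, and Asic1 lay close to the lower limit of 8.98 at Scnn1b. The progesterone receptor gene Pgr had 11.5, below both Nr3c2 and Nr3c1. Hsd11b1 at 4.26 lay below Hsd11b2. Of the kinases, Sgk2 had 45.4 and Sgk3 27.4, below Sgk1. Among the ligases Wwp1, at 93.4, stood above Nedd4l, and Nedd4 had 34.0, Itch 33.7, Smurf2 33.1, Wwp2 26.3 and Smurf1 23.9. The vasopressin and oxytocin receptors Oxtr, Avpr1a and Avpr1b had 20.2, 6.22 and 1.83, so Avpr2 lay below Oxtr, and the value of Avpr1a fell within the counting interval of Avpr2. Intervals covered 49.7% of Nedd4, the closest relative of Nedd4l.

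**Figure D4:**
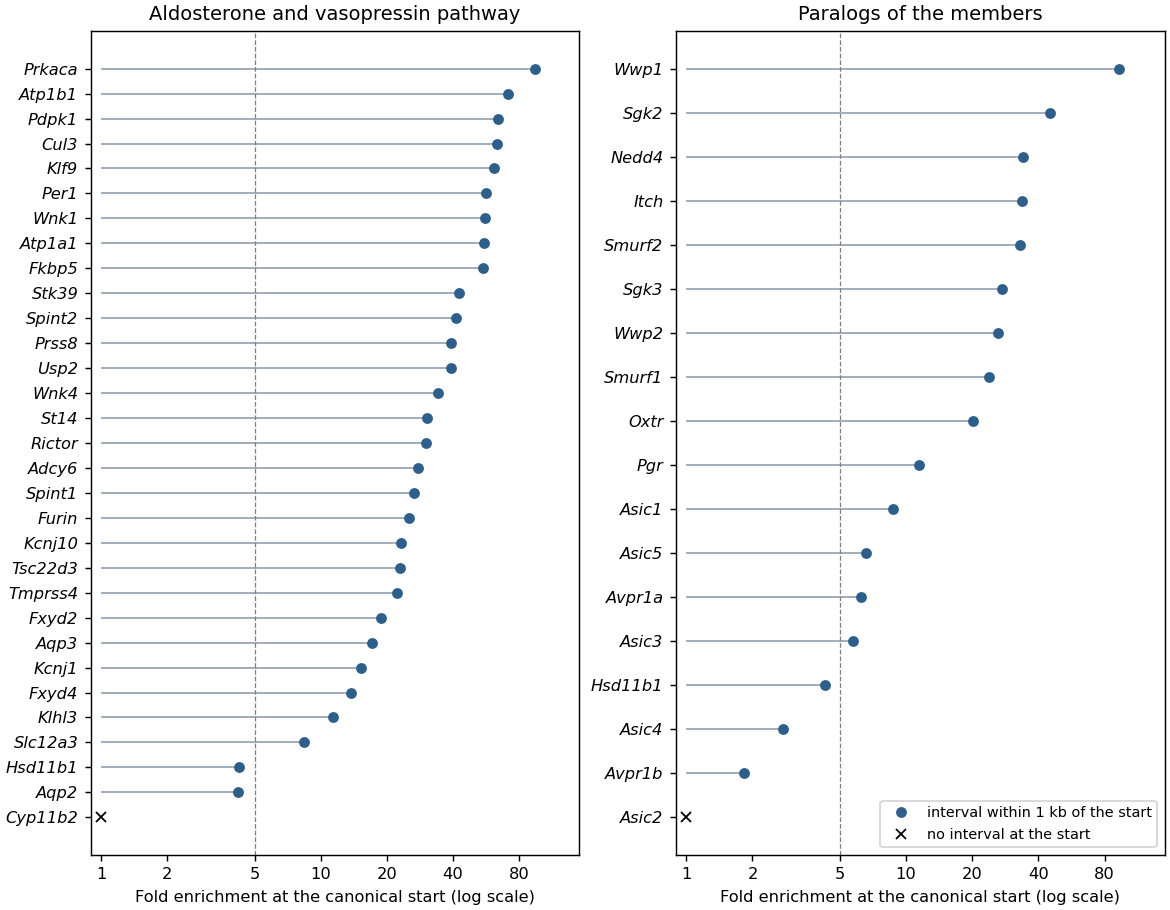
Fold enrichment at the canonical start, on a log scale, of 31 pathway genes and 18 paralogs, each ranked. Crosses at the left edge mark Cyp11b2 and Asic2, which had no start interval, and the dashed line marks a fold of 5. Wwp1 (93.4) and Prkaca (94.5) are the highest, and most acid-sensing channel genes lie at the lower end.

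Set beside the most similar gene groups, 9 of 11 aquaporin genes and 16 of 16 thick limb and distal salt transport genes had a start interval, and 6 and 15 reached 5. Over all protein-coding genes the shares were 75.8% with a start interval and 66.2% at a fold of 5. The median start folds of the aquaporin and thick limb groups, over accessible starts, were 11.5 and 14.7. They were 28.4 for the 9 genes and 30.1 over all accessible protein-coding starts. Median coverage of the gene regions ran the other way, at 43.8% and 68.6%, beside 26.8% for the 9 genes. In the thick limb group it ranged from 2.76% at Pvalb to 93.7% at Cldn19. These differences were not tested, and the groups were not matched for CpG-rich promoters. The tissue label was checked against marker genes. All 6 proximal tubule markers and all 6 principal cell markers had a start interval, with medians of 15.7 and 15.8, all 4 markers of the thick ascending limb and distal tubule had one, with a median of 8.45, and 3 of 4 intercalated cell markers had one, with a median of 4.65. Podocyte and endothelial markers had medians of 4.52 and 2.75 over 3 genes each, and genes of other organs, with 4 of 5 starts accessible, 2.72. Of the immune markers Cd68 had 31.2 and Ptprc 1.90, a median of 16.5, and Cd3e had none. Values also ranged widely within a list, as from 4.19 at Aqp2 to 50.3 at Tfcp2l1 among principal cell markers. The immune median lay above the proximal tubule and principal cell medians, so these medians do not separate cell types. The cell types that gave each interval were not resolved.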

How the data were processed

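ATAC-seq libraries of 3 WT and 3 Acly cKO mice were grouped from their labels. As the methods and the submitters' processing notes state, the authors used fastp for trimming and Bowtie2 2.3.4.3 for alignment to mm39, removed duplicates and multiply mapped reads, called peaks with MACS3 3.0.0 at a q of 0.05 and removed blacklisted regions with bedtools 2.29.1. The notes also name deepTools 3.5.1. The deposited list holds 1 row per summit, 749750 in all, on 21 chromosomes. Its fold enrichment is a linear ratio computed by the authors, and its -log10 q is as the authors' caller wrote it. The deposited summits before filtering were not used.

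Rows were grouped into distinct intervals, each represented by the summit with the highest -log10 q. An interval counted for a gene if any base overlapped it, and for a start within 1 kb of the canonical transcript start. Summits were placed on canonical transcripts. Genes without a start interval were counted at 0 in shares of all genes and left out of shares of accessible starts. Motifs were matched without mismatch. Reference sequence that the annotation gives to a UTR was not printed. No test was run, since the pooled list has no replicates.

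The text names all 9 genes, the strongest start interval of each, up to 3 further intervals away from its starts, the 3 highest and 3 lowest pathway genes, those with no start interval, and the paralogs. A further paralog of the list is not reported here. A few other intervals and genes were named after their values were seen. Members and lists were chosen with earlier results of these data known. The steps were tested on simulated data, where all 500 planted intervals, 500 overlaps and 13 placements were recovered. Python 3.11.15, numpy 2.4.6, pandas 2.3.3, scipy 1.17.1 and pysam 0.24.0 were used.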

Additional observations from a re-analysis of the deposited data

How the results depend on the processing

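The number of intervals at the 9 genes was 348. It was 191 at a q under 1e-05, 78 at a fold enrichment of at least 5 and 1146 with summits counted, sets that are smaller or larger by construction. Under the other 5 alternatives (10 kb on either side, the gene body alone, a q under 0.01, the highest summit inside the region, and at least 50% of the interval inside it) it ran from 297 to 389. Of 72 counts at single genes, 27 moved by more than 1.5 times, most of them under the settings that are smaller or larger by construction. Under the other 5 alternatives, only counts at Scnn1g, Hsd11b2, Sgk1 and Avpr2 moved. The number of genes with an accessible start was 9 with any annotated start, within 250 bp, at a fold of at least 5, at a q under 1e-05 and with the highest summit within 1 kb. The 250 bp setting asks for the interval and not for a summit. By summits within 250 bp of the canonical start, Avpr2 had 3.27, below 5, and Scnn1b had none. Of 27 values at the starts, 3 moved by more than 1.5 times, all with the summit nearest to the start, to 19.8 at Nr3c1, 14.7 at Hsd11b2 and 3.27 at Avpr2. With windows of 100 bases the intervals with a match numbered 1 for the receptor element, 0 for HNF1, 21 for AP-1, 5 for grainyhead and 35 for TFCP2L1, in place of 2, 1, 40, 10 and 55, since a shorter window holds fewer positions. No paired analysis was possible because all libraries share 1 pooled peak call, and for that reason no replicate could be left out. The depth of single libraries is unknown, so whether a weak interval recurs between kidneys was not tested.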
